A study of Homo sapiens with 12 samples.

Results

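The genes described here encode the aminoacyl-tRNA synthetases, the enzymes that load transfer RNAs, together with the scaffold proteins that hold several of them in one complex. The members were the gene identifiers whose symbol was on a list of 38, out of 60617 identifiers in each count table, and each symbol matched 1 identifier. They comprised 22 cytosolic members, of which 19 were enzymes and 3 were scaffold subunits, and 16 mitochondrial enzymes. RNA was sequenced from 12Z cells, an immortalized line from human endometriotic epithelium. All 12 libraries came from cells given a non-targeting siRNA and then, after 24 h, transfected with pBabe plasmid, either empty (control cells) or carrying the PIK3CA H1047R allele (H1047R cells). After 4 h without serum, vehicle or 100 nM insulin was added in serum-free medium, and RNA was taken 24 h later. This gave 4 groups of 3 libraries each, named below as control or H1047R followed by vehicle or insulin, and the study describes its replicates as independent experiments. The H1047R cells were a transiently transfected population of a single line, so cells that took up the plasmid and cells that did not were sequenced together.

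Each synthetase recognises one amino acid and the transfer RNAs that decode it, and joins them at the cost of ATP, so that the ribosome receives amino acids already matched to codons. Human cells keep a cytosolic set and a mitochondrial set. Both are encoded in the nucleus, mostly by separate genes, and the mitochondrial set charges the transfer RNAs made from the mitochondrial genome. Several cytosolic enzymes are bound in the multisynthetase complex around the scaffold proteins AIMP1, AIMP2 and EEF1E1, while the others are free. Transcription of many cytosolic synthetase genes is known to be raised by ATF4, the factor made when amino acids are short or the endoplasmic reticulum is stressed, and ATF4 is also a known output of the insulin, PI3K and mTORC1 pathway.

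Total gene counts ranged from 21483124 to 37918025 per library, and 22756 genes passed the filter on low counts and entered the tests. The H1047R insulin libraries were the deepest, at 30071951 to 37918025 counts, and 8.48 to 9.51% of their reads mapped to several sites, against 13.6 to 15.4% in the other libraries. PIK3CA, the gene on the plasmid, was at 89.0, 88.2 and 88.7 CPM (read counts scaled to library size) in control vehicle, 81.1, 85.9 and 80.9 in control insulin, 312, 180.1 and 215 in H1047R vehicle and 734, 714 and 715 in H1047R insulin. Its level was thus higher in all H1047R libraries than in all control libraries, and higher in H1047R insulin than in H1047R vehicle. On the mean over all 12 libraries, 5 of 6 epithelial markers were at or above 1 CPM. EPCAM was below it, while all 6 stromal markers reached it. The summed stromal markers were lower in H1047R insulin (4674 to 4856 CPM) than in the other groups (5558 to 5874 CPM), and the summed epithelial markers were 3270 to 3288 CPM against 2907 to 3246 CPM. The members of both lists did not move as one, since with insulin in H1047R cells 1 stromal marker was called higher (VIM, 0.17) and 5 lower (DCN at -3.07 and LUM at -1.98 among them), and 1 epithelial marker was called higher and 1, KRT7 (-0.30), lower. On the same mean over 12 libraries, 2 of 3 endothelial markers and 1 of 3 immune markers reached 1 CPM. Their sums per library were 2.62 to 5.23 CPM and 3.82 to 6.48 CPM, and CD3E was at 0 counts. Depth, multimapping share, plasmid level and stromal markers all moved with the H1047R insulin group, and their part in the results below was not tested. In such bulk libraries a change in the share of cells expressing a gene and a change in RNA per cell cannot be told apart.

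Of the 38 members, 36 had counts and were tested. SARS2 (chr19:38915266-38930763, minus strand) and VARS2 (chr6:30914205-30926459, plus strand), the mitochondrial enzymes for serine and valine, had 0 counts in all 12 libraries. In GENCODE v44 on hg38, 77.5% of the canonical exons of SARS2 and 100% of those of VARS2 lie within another gene on the same strand. Reads that fit more than one gene are given to neither by the counting, but the release used for counting is not known, and part of the SARS2 exons overlaps no such gene. The cause of the zeros was not tested, and they were not read as absence of expression. The same overlap covered 37.5% of the exons of EEF1E1, 6.16% of HARS2 and 3.91% of EARS2, whose counts may therefore be partial. No other member had canonical exons that overlapped exons of another gene on its own strand. Exons outside the canonical transcripts were not checked.

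Per kilobase of canonical transcript, the cytosolic enzymes lay mostly above the mitochondrial ones. The highest level in control vehicle was that of SARS1, the seryl enzyme, at 95.8 ± 2.15 CPM per kb (mean ± SD, n = 3). TARS1 (threonyl) at 91.8 ± 2.93 CPM per kb and RARS1 (arginyl) at 91.0 ± 3.59 CPM per kb followed, and these neighbours did not differ beyond their spread. Of the mitochondrial enzymes, IARS2 (isoleucyl) at 36.0 ± 1.16 CPM per kb and RARS2 (arginyl) at 29.9 ± 1.13 CPM per kb stood highest, within the range of the cytosolic set. The low end held PARS2, the mitochondrial prolyl enzyme, at 2.77 ± 0.275 CPM per kb and MARS2, the mitochondrial methionyl enzyme, at 1.92 ± 0.0571 CPM per kb. Some cytosolic members were also low per kb. VARS1 (valyl) was at 10.3 ± 0.448 CPM per kb and FARSB at 7.81 ± 0.327 CPM per kb. FARSB is the beta subunit of the phenylalanyl enzyme, which needs it and the alpha subunit FARSA in equal number, and FARSA was at 47.4 ± 1.97 CPM per kb. The canonical transcript of FARSB is 6761 bases long and that of FARSA 1811, so this difference depends on the transcript taken as the length.

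**Figure D1:**
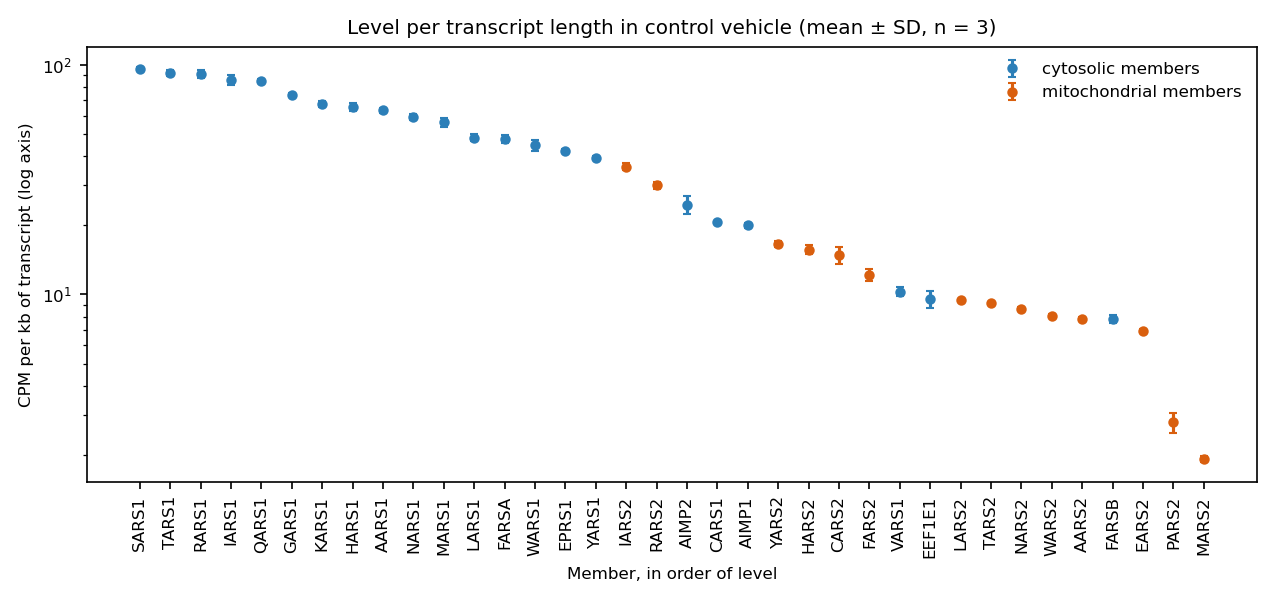
Level of the 36 counted members in control vehicle, in CPM per kb of canonical transcript on a log axis, as mean ± SD of 3 libraries. Cytosolic members fill the top of the order from SARS1 at 95.8 CPM per kb, IARS2 at 36.0 is the highest mitochondrial enzyme and MARS2 at 1.92 the lowest.

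Whether insulin alone altered the synthetases was read in control cells. Insulin raised 7 of 22 cytosolic members and lowered none at a false discovery rate (FDR) below 0.001, whereas none of the 14 mitochondrial enzymes tested passed in either direction. Of all genes tested, 0.483% were called higher and 1.15% lower. The median log2 fold change was 0.18 over the cytosolic members and 0.035 over the mitochondrial ones, beside 0.0037 over all genes. At an unadjusted p below 0.05, 15 cytosolic members were higher and 1 lower, and 2 mitochondrial enzymes were higher and 1 lower. The share of all genes at this p was not counted, so these counts have no background beside them. By DESeq2, 9 cytosolic and 0 mitochondrial members passed, without its share of all genes beside them. At the looser FDR of 0.05, 13 cytosolic members were higher and 0 lower, beside 2.31% and 2.99% of all genes, and 0 mitochondrial ones passed. Insulin libraries all lay above vehicle libraries for 15 cytosolic and 3 mitochondrial members, which held for 10.3% of all genes, and all below them for 1 and 0, which held for 9.92%.

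WARS1 (chr14:100333790-100376805, minus strand) charges tryptophan and is known as the synthetase induced by interferon gamma. Its level was 111, 119 and 124 CPM in control vehicle, 147, 148 and 150.1 in control insulin, 152, 140.4 and 128 in H1047R vehicle and 261, 259 and 275 in H1047R insulin. The control insulin libraries all lay above the control vehicle ones, the H1047R insulin libraries lay far above every other library, and the H1047R vehicle group spanned the level of control insulin. With insulin, WARS1 rose by 0.33 ± 0.0475 (log2 fold change ± SE, edgeR adjusted p = 4.5e-06) in control cells and by 0.92 ± 0.0464 (adjusted p = 2.18e-19) in H1047R cells, the greatest change of any member in both.

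YARS1 (chr1:32775237-32818031, minus strand), the tyrosyl enzyme, was at 94.9, 95.9 and 97.7 CPM in control vehicle, 117, 122 and 118 in control insulin, 118, 109 and 108 in H1047R vehicle and 182, 183 and 186 in H1047R insulin. The H1047R insulin libraries were again the highest, and insulin and vehicle did not overlap in either cell population. The rise was 0.31 ± 0.0423 in control cells (edgeR adjusted p = 2.14e-06) and 0.71 ± 0.0412 in H1047R cells (adjusted p = 1.26e-17). GARS1, the glycyl enzyme, is a single gene whose alternative starts of translation give both the cytosolic and the mitochondrial protein. It was at 176, 179.9 and 183 CPM in control vehicle, 223, 218 and 219 in control insulin, 207, 188 and 206 in H1047R vehicle and 307, 301 and 306 in H1047R insulin. Insulin and vehicle did not overlap in either population, and GARS1 rose by 0.29 ± 0.0396 (adjusted p = 1.25e-06) in control and 0.60 ± 0.0391 (adjusted p = 4.7e-16) in H1047R cells.

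MARS1, the methionyl enzyme, belongs to the multisynthetase complex and also charges the initiator transfer RNA. Its level was 160.0, 148 and 162 CPM in control vehicle, 181, 183 and 192 in control insulin, 183, 166 and 169.9 in H1047R vehicle and 263, 246 and 258 in H1047R insulin. Every insulin library exceeded every vehicle library of the same plasmid. The rise was 0.24 ± 0.0433 in control cells (edgeR adjusted p = 0.000197) and 0.56 ± 0.0426 in H1047R cells (adjusted p = 4.27e-14). MARS1 lies opposite DDIT3, the stress factor CHOP, which rose by 1.07 ± 0.0851 with insulin in H1047R cells. Only counts from the strand of MARS1 were used, and MARS1 rose by 0.56 in H1047R cells also when strand was ignored.

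EPRS1, which carries the glutamyl and prolyl activities on one chain of the complex, was at 199, 207 and 207 CPM in control vehicle, 236, 245 and 232 in control insulin, 218, 212 and 217 in H1047R vehicle and 232, 233 and 233 in H1047R insulin. Insulin and vehicle libraries did not overlap in either population, and the control insulin libraries reached the level of H1047R insulin or exceeded it. EPRS1 rose by 0.21 ± 0.0377 in control cells (edgeR adjusted p = 0.000131), and in H1047R cells the difference was 0.11 ± 0.0375 (adjusted p = 0.0229), short of the threshold. IARS1, the isoleucyl enzyme of the complex, was at 369, 376 and 406 CPM in control vehicle, 438, 437 and 449.8 in control insulin, 428, 417 and 424 in H1047R vehicle and 493, 496 and 494 in H1047R insulin, with all insulin libraries above the vehicle libraries of their plasmid. It rose by 0.20 ± 0.0369 (adjusted p = 0.000217) in control and 0.23 ± 0.0367 (adjusted p = 3.15e-06) in H1047R cells. RARS1, the arginyl enzyme, completed the 7 with 0.20 ± 0.0402 in control cells (adjusted p = 0.000799).

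The calls of WARS1, YARS1 and GARS1 in control cells were kept in every alternative fit, while those of EPRS1, IARS1, MARS1 and RARS1 were lost when single libraries were left out. That of RARS1 was also lost when the filter asked for 1 CPM in 3 libraries (adjusted p = 0.00121). The count of cytosolic calls became 4 without control vehicle replicate 1, control vehicle replicate 2 or control insulin replicate 3, and 3 without control insulin replicate 2. The remaining 15 cytosolic members had log2 fold changes from -0.14 (EEF1E1) to 0.22 (FARSB).

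**Figure D2:**
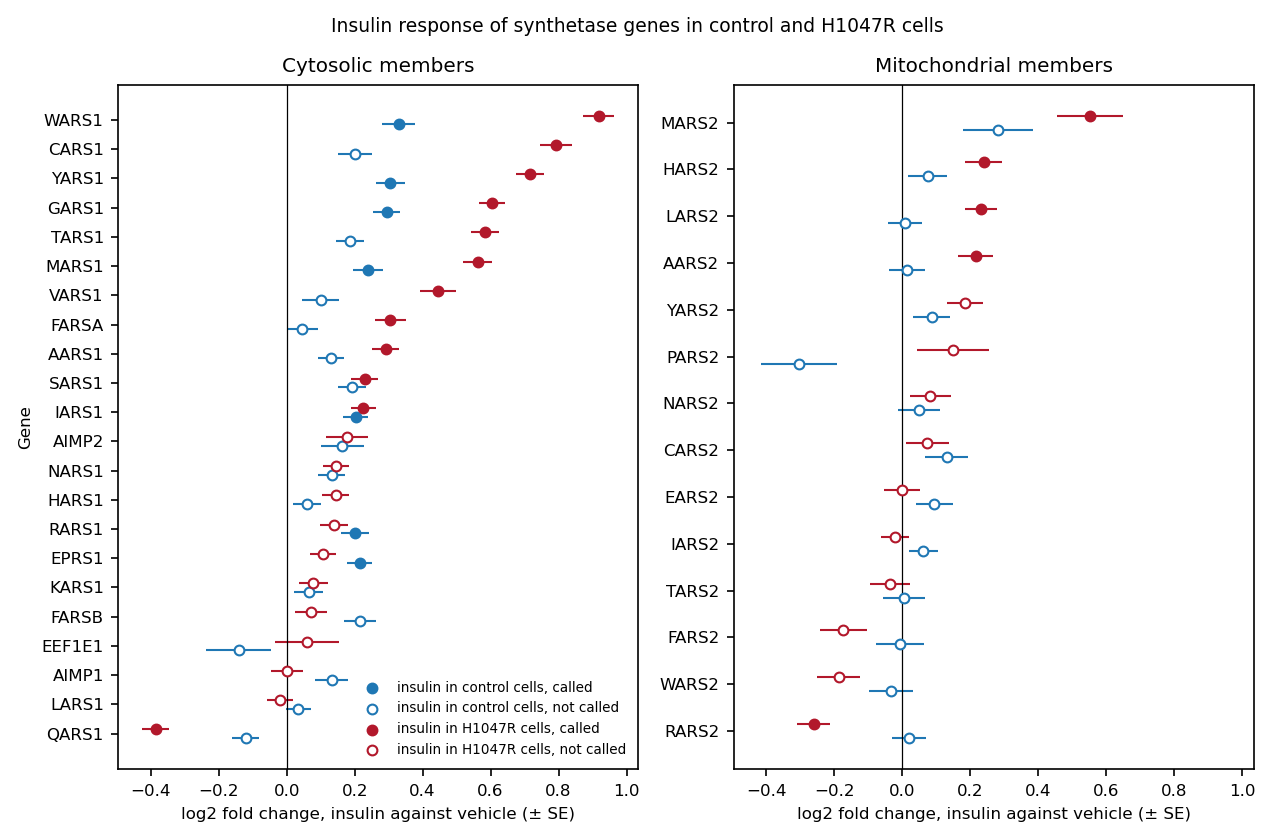
Log2 fold change (± SE) of insulin against vehicle for 22 cytosolic members (left) and 14 mitochondrial enzymes (right), in control cells (blue) and H1047R cells (red), with filled points for FDR below 0.001. WARS1 leads in both populations at 0.33 and 0.92, QARS1 is the only cytosolic member called lower at -0.39, and no mitochondrial point is filled in control cells.

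The same question was asked in cells carrying PIK3CA H1047R. There insulin raised 11 of 22 cytosolic members and lowered 1, and it raised 4 of 14 mitochondrial enzymes and lowered 1. Of all genes tested, 9.85% were called higher and 9.8% lower. The median log2 fold change was 0.20 over the cytosolic and 0.078 over the mitochondrial members, with -0.00061 over all genes. The insulin and vehicle libraries did not overlap, with insulin higher, for 18 cytosolic and 6 mitochondrial members, which 22.7% of all genes also did, and with insulin lower for 1 and 3, against 22.2% of all genes. At an FDR below 0.05, 16 cytosolic and 5 mitochondrial members were higher and 1 and 3 lower, beside 17.3% and 17% of all genes. Of the 12 free cytosolic enzymes, 9 rose with a median of 0.37, while of the 10 members of the multisynthetase complex 2 rose and 1 fell with a median of 0.093.

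Among the free enzymes, CARS1 (chr11:3000922-3057613, minus strand), which charges cysteine, was at 57.1, 56.8 and 56.1 CPM in control vehicle, 67.6, 62.9 and 65.2 in control insulin, 70.9, 61.8 and 65.2 in H1047R vehicle and 119.7, 112 and 111 in H1047R insulin. All 3 H1047R insulin libraries stood well above the other 9. CARS1 rose by 0.79 ± 0.0478 (edgeR adjusted p = 5.32e-17) in H1047R cells, and in control cells the difference was 0.20 ± 0.0502 (adjusted p = 0.00869) without passing the threshold. TARS1, the threonyl enzyme, was at 239.7, 254 and 242 CPM in control vehicle, 280.2, 282 and 275 in control insulin, 286, 252 and 256 in H1047R vehicle and 397, 402 and 391 in H1047R insulin, with the same group standing apart. It rose by 0.58 ± 0.0407 (adjusted p = 3.85e-15), beside 0.19 ± 0.0411 (adjusted p = 0.00246) in control cells. VARS1, the valyl enzyme, which associates with elongation factor 1, was at 40.8, 44.3 and 41.7 CPM in control vehicle, 42.7, 44.7 and 48.8 in control insulin, 46.9, 44.9 and 44.2 in H1047R vehicle and 62.3, 59.5 and 63.5 in H1047R insulin. It rose by 0.45 ± 0.052 (adjusted p = 3.57e-09) in H1047R cells, and its control groups overlapped.

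Smaller rises in H1047R cells were those of FARSA (0.30), AARS1, the alanyl enzyme (0.29), and SARS1 (0.23), with edgeR adjusted p from 5.52e-08 to 1.38e-05. FARSA passed without its partner FARSB, for which the difference was 0.07 ± 0.0469 (adjusted p = 0.272). In control cells the larger value of the pair was that of FARSB, at 0.22 ± 0.048 (adjusted p = 0.00292), beside 0.05 ± 0.0462 (adjusted p = 0.711) for FARSA, and neither passed. The 12 cytosolic calls were kept in every alternative fit. DESeq2 called 15, with HARS1, NARS1 and RARS1 in addition, without its share of all genes beside them.

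QARS1 (chr3:49095932-49105130, minus strand), the glutaminyl enzyme of the multisynthetase complex, moved against the other called members of its class. Its level was 203, 209 and 209.7 CPM in control vehicle, 185, 192 and 195 in control insulin, 189.7, 206 and 190.2 in H1047R vehicle and 149, 149.6 and 150.4 in H1047R insulin. The H1047R insulin libraries were the lowest of the 12 and lay close together. QARS1 fell by 0.39 ± 0.0401 on the log2 scale (edgeR adjusted p = 2.07e-10) with insulin in H1047R cells. In control cells the difference was -0.12 ± 0.0399 (adjusted p = 0.0715), with insulin libraries below vehicle libraries but short of the threshold.

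KARS1, the lysyl enzyme, which like GARS1 gives a cytosolic and a mitochondrial protein from one gene, did not pass in any comparison. It was at 129, 136 and 136 CPM in control vehicle, 134, 139 and 147 in control insulin, 137, 133 and 133 in H1047R vehicle and 143, 144 and 139 in H1047R insulin, and its groups overlapped in control cells. The insulin differences were 0.06 ± 0.042 (adjusted p = 0.495) in control and 0.08 ± 0.0417 (edgeR adjusted p = 0.153) in H1047R cells. LARS1, the leucyl enzyme, which is also known as a leucine sensor upstream of mTORC1, lay between 223 and 241 CPM in all 12 libraries. Its insulin differences were 0.03 ± 0.0378 and -0.02 ± 0.0376 (adjusted p = 0.739 and 0.756).

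The scaffold subunits passed in no comparison. AIMP1, whose secreted fragment is known as the cytokine EMAP II, was at 55.4, 56.6 and 54.2 CPM in control vehicle, 59.2, 61.3 and 61.8 in control insulin, 56.2, 52.3 and 57.2 in H1047R vehicle and 54.3, 55.5 and 56.1 in H1047R insulin. AIMP2, the core scaffold, was at 27.8, 27.9 and 32.6 CPM in control vehicle, 32.9, 33.3 and 32.3 in control insulin, 29.9, 34.0 and 29.1 in H1047R vehicle and 35.2, 35.2 and 35.0 in H1047R insulin. EEF1E1, also called AIMP3, was at 10.7, 9.07 and 10.1 CPM in control vehicle, 8.85, 9.21 and 8.98 in control insulin, 7.58, 8.41 and 9.74 in H1047R vehicle and 9.73, 8.55 and 8.61 in H1047R insulin. AIMP1 libraries with insulin lay above those with vehicle in control cells and AIMP2 libraries in H1047R cells, and all other such groups overlapped. The insulin differences of AIMP1, AIMP2 and EEF1E1 in H1047R cells were 0.00, 0.18 and 0.06, with edgeR adjusted p of 0.983, 0.02 and 0.698. In control cells they were 0.13, 0.16 and -0.14, with adjusted p of 0.109, 0.138 and 0.518. The EEF1E1 values may rest only on the part of the gene that no neighbour overlaps.

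**Figure D3:**
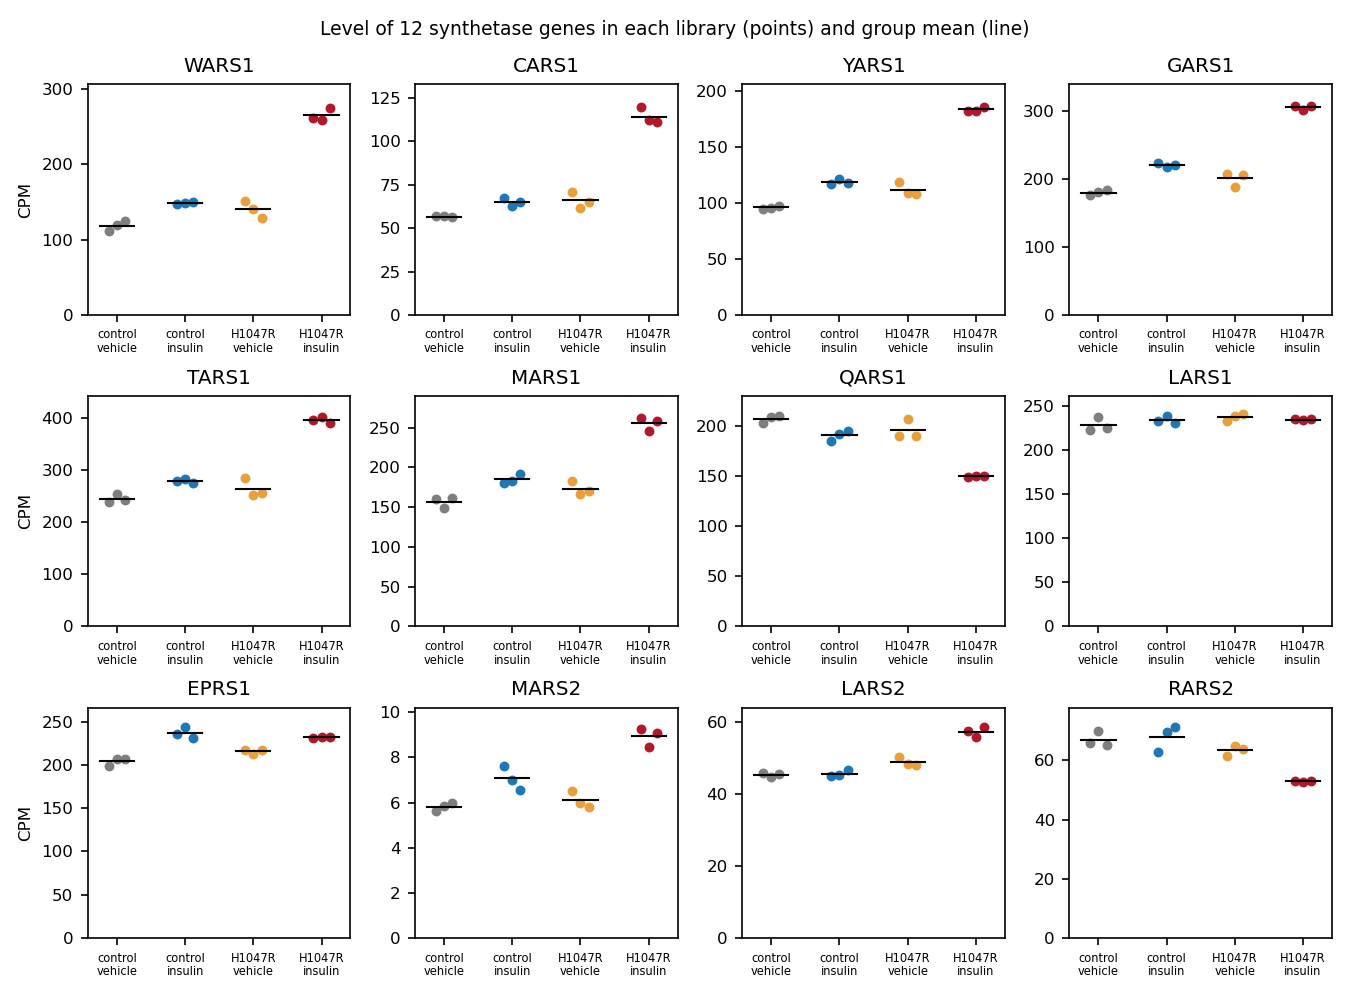
Level of 12 members in CPM (axes from 0) in each of 12 libraries, with points for libraries and a line for the group mean. For WARS1, CARS1, YARS1, GARS1, TARS1 and MARS1 the 3 H1047R insulin points lie above the other 9, for QARS1 and RARS2 they lie below them, and for LARS1 the groups lie between 223 and 241 CPM.

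Of the mitochondrial enzymes, MARS2 (chr2:197705369-197708395, plus strand), the methionyl enzyme and a gene whose canonical transcript of 3027 bases fills this interval, was at 5.63, 5.85 and 5.98 CPM in control vehicle, 7.64, 7.01 and 6.56 in control insulin, 6.53, 5.96 and 5.80 in H1047R vehicle and 9.28, 8.47 and 9.07 in H1047R insulin. Insulin libraries exceeded vehicle libraries in both populations. MARS2 rose by 0.55 ± 0.0964 (edgeR adjusted p = 1.07e-05) in H1047R cells, and in control cells the difference was 0.28 ± 0.103 (adjusted p = 0.114). HARS2, the histidyl enzyme, was at 39.6, 39.7 and 36.6 CPM in control vehicle, 40.8, 39.3 and 42.2 in control insulin, 41.7, 38.4 and 42.7 in H1047R vehicle and 47.4, 51.1 and 46.3 in H1047R insulin, and its control groups overlapped. It rose by 0.24 ± 0.0542 (adjusted p = 0.00044) with insulin in H1047R cells.

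LARS2, the leucyl enzyme, was at 45.8, 44.8 and 45.5 CPM in control vehicle, 44.9, 45.2 and 46.7 in control insulin, 50.3, 48.3 and 48.0 in H1047R vehicle and 57.5, 55.9 and 58.6 in H1047R insulin. All 3 H1047R insulin libraries exceeded the other 9. LARS2 rose by 0.23 ± 0.0472 (edgeR adjusted p = 0.000112) in H1047R cells. AARS2, the alanyl enzyme, was at 38.1, 37.9 and 36.6 CPM in control vehicle, 37.1, 39.3 and 37.4 in control insulin, 37.6, 39.5 and 36.2 in H1047R vehicle and 42.7, 44.7 and 44.03 in H1047R insulin and rose by 0.22 ± 0.0517 (adjusted p = 0.000831).

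RARS2 (chr6:87513459-87590028, minus strand), the arginyl enzyme, was the mitochondrial member that fell. It was at 65.7, 69.9 and 65.2 CPM in control vehicle, 63.0, 69.6 and 71.2 in control insulin, 61.4, 64.9 and 63.8 in H1047R vehicle and 53.2, 52.6 and 52.9 in H1047R insulin, and the H1047R insulin libraries were again the lowest. RARS2 fell by 0.26 ± 0.0491 on the log2 scale (edgeR adjusted p = 3.44e-05). The 9 mitochondrial enzymes that did not pass had log2 fold changes from -0.19 (WARS2) to 0.19 (YARS2). The calls of MARS2 and RARS2 were kept in every alternative fit. That of AARS2 was lost when only the compared groups entered the fit (adjusted p = 0.00142). Those of AARS2, HARS2 and LARS2 depended on single libraries, and the count of mitochondrial calls fell to 3 when H1047R vehicle replicate 2 or 3, or any 1 H1047R insulin replicate, was left out.

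HARS1 and HARS2 are neighbours that point away from each other on chromosome 5, with RefSeq starts 85 bases apart and gene bodies that share 108 bases on opposite strands in GENCODE v44. HARS1, the cytosolic histidyl enzyme, was at 131, 129.8 and 122 CPM in control vehicle, 134, 133 and 132 in control insulin, 132, 127 and 128 in H1047R vehicle and 146, 139 and 144 in H1047R insulin. With insulin in H1047R cells the difference was 0.14 ± 0.0408 (edgeR adjusted p = 0.00457), which did not pass, beside the rise of 0.24 in HARS2. HARS1 did pass by DESeq2 (adjusted p = 0.000283), with library totals alone (adjusted p = 0.000488), without the filter on low counts (adjusted p = 0.000735) and without H1047R vehicle replicate 1 (adjusted p = 0.000408), whereas the call of HARS2 was lost without H1047R vehicle replicate 2 or H1047R insulin replicate 1 or 2. In control cells the values were 0.06 (adjusted p = 0.534) and 0.07 (adjusted p = 0.582). The difference between the 2 genes was not tested.

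Whether the insulin response itself differed between H1047R and control cells was tested by the interaction, the insulin difference in H1047R cells minus that in control cells. The response was greater in H1047R cells for 7 cytosolic members and lower for 1, out of 22, and 0 of 14 mitochondrial enzymes passed. Of all genes, 4.58% passed as higher and 4.49% as lower. At an FDR below 0.05, 9 cytosolic and 3 mitochondrial members were higher and 1 of each lower, beside 10.4% and 10.9% of all genes. The median interaction was 0.061 for cytosolic and -0.0051 for mitochondrial members, with -0.014 over all genes. The largest were CARS1 (0.59 ± 0.0694, edgeR adjusted p = 1.29e-08) and WARS1 (0.59 ± 0.0663, adjusted p = 4.89e-09). YARS1 (0.41 ± 0.059, adjusted p = 9.09e-07), TARS1 (0.40 ± 0.0577, adjusted p = 1.14e-06), VARS1 (0.34 ± 0.0752, adjusted p = 0.000571), MARS1 (0.32 ± 0.0607, adjusted p = 7.92e-05) and GARS1 (0.31 ± 0.0556, adjusted p = 3.95e-05) followed. All of these but MARS1 are free enzymes, so that 6 of 12 free enzymes and 1 of 10 complex members passed as higher.

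QARS1 passed as lower (-0.27 ± 0.0565, edgeR adjusted p = 0.000429). The calls of QARS1 and VARS1 were lost when single libraries were left out, and that of QARS1 also without TMM scaling, with DESeq2 size factors in the same fit and without the filter on low counts. EPRS1 (-0.11 ± 0.0531, adjusted p = 0.162), RARS1 (-0.06 ± 0.0567, adjusted p = 0.516) and IARS1 (0.02 ± 0.0521, adjusted p = 0.831), called with insulin in control cells, did not pass here. At an unadjusted p below 0.05 the interaction was positive for 4 and negative for 1 of the mitochondrial enzymes, without a count over all genes at that p. DESeq2 passed 0 of these enzymes. The smallest adjusted p among them was that of RARS2 (-0.28 ± 0.0692, adjusted p = 0.00215).

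Whether PIK3CA H1047R altered these genes without insulin was read in the vehicle groups. By edgeR, 0 of 22 cytosolic and 0 of 14 mitochondrial members were called in H1047R vehicle against control vehicle, and 0.141% of all genes were called higher and 0.0176% lower. At an unadjusted p below 0.05, 10 cytosolic members were higher and 2 lower, and 1 mitochondrial enzyme was higher. No share of all genes was counted at this p, so these counts cannot be set against a background. DESeq2 called 1 cytosolic member, YARS1, and 0 mitochondrial ones. At an FDR below 0.05 by edgeR, 5 cytosolic members were higher and 0 lower, beside 0.624% and 0.589% of all genes. All H1047R libraries lay above the control ones for 10 cytosolic and 2 mitochondrial members and below them for 0 and 1, beside 7.55% and 6.83% of all genes. The median was 0.084 over cytosolic and 0.0085 over mitochondrial members, beside 0.0022 over all genes. The smallest adjusted p were those of WARS1 (0.25 ± 0.0478, adjusted p = 0.00293) and YARS1 (0.22 ± 0.0427, adjusted p = 0.0035). The 3 H1047R vehicle libraries spread more than the other groups for WARS1, at 140.2 ± 11.6 CPM (SD, n = 3). The SD was 6.55 CPM in control vehicle, 1.77 in control insulin and 8.79 in H1047R insulin. Replicate 1 of H1047R vehicle was the highest of the 3 and also had the most PIK3CA reads, and a link between them was not tested.

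With insulin present in both, H1047R cells exceeded control cells for 10 of 22 cytosolic members, with 1 lower, and for 3 of 14 mitochondrial enzymes, with 1 lower. Of all genes, 11.4% were called higher and 12% lower. At an FDR below 0.05, 11 cytosolic and 5 mitochondrial members were higher and 2 of each lower, beside 18.5% and 20% of all genes. The libraries did not overlap, with H1047R higher, for 12 cytosolic and 6 mitochondrial members, and with H1047R lower for 2 of each, beside 23.3% and 25.2% of all genes. The median was 0.098 over cytosolic and 0.044 over mitochondrial members, beside -0.022 over all genes. WARS1 was higher by 0.84 ± 0.046 (edgeR adjusted p = 1.53e-18), CARS1 by 0.81 ± 0.0475 (adjusted p = 1.18e-17) and YARS1 by 0.63 ± 0.0408 (adjusted p = 2.68e-16). TARS1 (0.51), GARS1 (0.47), MARS1 (0.47), VARS1 (0.44), FARSA (0.26), AARS1 (0.26) and IARS1 (0.16) were higher too. QARS1 was lower (-0.35 ± 0.0399, adjusted p = 1.57e-09).

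Of the mitochondrial enzymes in this comparison, LARS2 (0.33 ± 0.047, edgeR adjusted p = 1.78e-07), HARS2 (0.25 ± 0.0536, adjusted p = 0.000228) and AARS2 (0.21 ± 0.051, adjusted p = 0.000983) were higher and RARS2 (-0.36 ± 0.0485, adjusted p = 5.89e-08) was lower. The calls of IARS1, HARS2 and AARS2 were lost without single libraries, and the mitochondrial count was 2 without control insulin replicate 1 or 2 or H1047R insulin replicate 2. This comparison shares its H1047R insulin libraries with the insulin comparison in H1047R cells, so the 2 sets of values are not independent. By edgeR, 8 cytosolic members (FARSB, HARS1, KARS1, LARS1, NARS1, AIMP1, AIMP2 and EEF1E1) and 9 mitochondrial enzymes (CARS2, EARS2, FARS2, IARS2, NARS2, PARS2, TARS2, WARS2 and YARS2) passed in none of the 5 comparisons. Of these, HARS1 and NARS1 passed for insulin in H1047R cells by DESeq2, with library totals alone and without the filter on low counts.

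The cytosolic and mitochondrial classes were also set side by side for the same amino acid. For 11 amino acids both enzymes had counts. The insulin difference was greater for the cytosolic enzyme in 9 of 11 pairs in control cells and in 9 of 11 in H1047R cells. These counts go by sign alone, and the differences within pairs were not tested. In H1047R cells the smallest of the 9 were methionine (0.010), asparagine (0.063) and alanine (0.075). Leucine (-0.25) and histidine (-0.095) went the other way. The tryptophan pair was the farthest apart, and the ratio of WARS1 to WARS2 in CPM was 5.23 ± 0.297 in control vehicle, 6.74 ± 0.351 in control insulin, 6.55 ± 0.367 in H1047R vehicle and 14.1 ± 0.494 in H1047R insulin (mean ± SD, n = 3). WARS2, its mitochondrial partner, was at 22.7, 22.1 and 22.9 CPM in control vehicle, 22.4, 22.7 and 21.0 in control insulin, 22.4, 20.8 and 21.0 in H1047R vehicle and 18.0, 19.1 and 19.2 in H1047R insulin, and its difference with insulin in H1047R cells was -0.19 ± 0.0635 (edgeR adjusted p = 0.0185).

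The ratio of TARS1 to TARS2 was 9.87 ± 0.400 in H1047R vehicle and 15.2 ± 0.249 in H1047R insulin, and that of CARS1 to CARS2 was 2.48 ± 0.195 and 4.10 ± 0.346. In contrast, the methionine pair kept its ratio, at 28.4 ± 0.777 and 28.6 ± 0.409 of MARS1 to MARS2, and both genes rose. The arginine pair parted with RARS2 called lower and RARS1 at 0.14 ± 0.0399 (edgeR adjusted p = 0.00513). Its ratio of RARS1 to RARS2 was 3.24 ± 0.250 in H1047R vehicle and 4.27 ± 0.0592 in H1047R insulin. The exceptions in H1047R cells were leucine and histidine, where the mitochondrial gene had the greater difference. The ratio of LARS1 to LARS2 was 4.87 ± 0.203 in H1047R vehicle and 4.09 ± 0.0843 in H1047R insulin, without overlap.

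**Figure D4:**
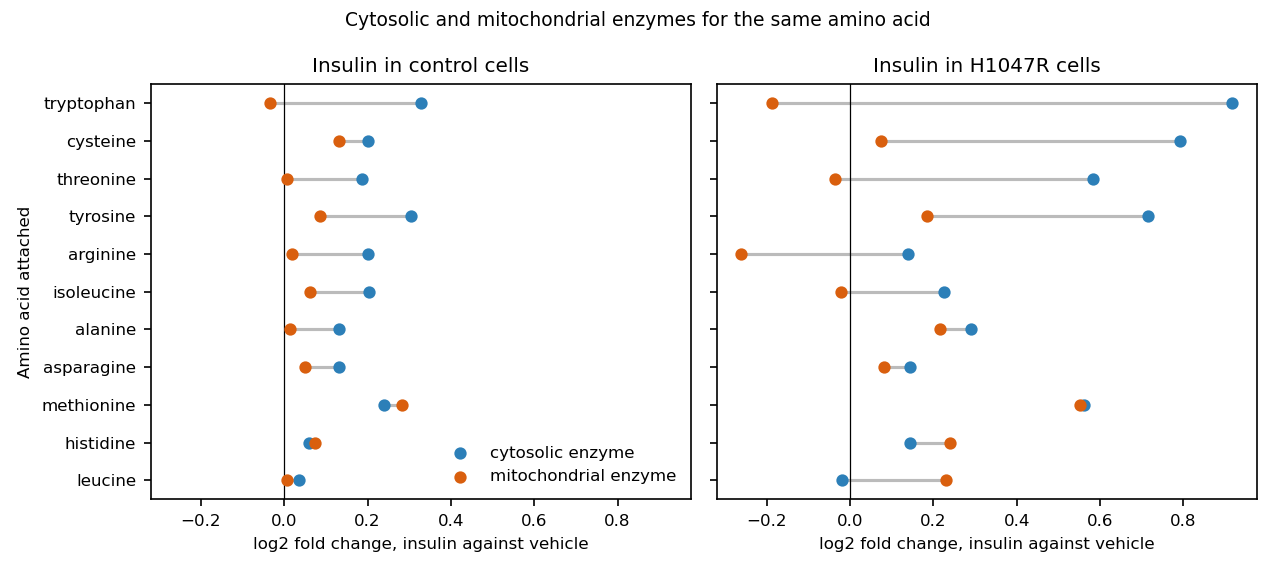
Log2 fold change of insulin against vehicle for the cytosolic (blue) and mitochondrial (orange) enzyme of 11 amino acids, in control cells (left) and H1047R cells (right), with a grey line joining each pair. The cytosolic point lies to the right in 9 of 11 pairs in each panel, and the tryptophan pair in H1047R cells is the widest, at 0.92 and -0.19.

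Summed over its members, the cytosolic class was at 3171 ± 38.8 CPM in control vehicle, 3541 ± 22.4 in control insulin, 3360 ± 77.7 in H1047R vehicle and 4150 ± 20.7 in H1047R insulin (SD, n = 3). The groups did not overlap. The mitochondrial class was at 516 ± 7.23, 533 ± 7.61, 521 ± 3.97 and 535 ± 7.44 CPM in the same order, with all groups between 510.0 and 540.3 CPM. Their ratio was 6.14 ± 0.0553, 6.65 ± 0.0658, 6.46 ± 0.118 and 7.76 ± 0.138. The mitochondrial sum includes SARS2 and VARS2 at 0 counts. The cytosolic sum includes the 3 scaffold subunits, and GARS1 and KARS1, whose genes also give mitochondrial proteins. The level of the ratio is therefore not the balance of cytosolic to mitochondrial enzymes. Across genes, the insulin differences in control and in H1047R cells, which share no library, had a Pearson r of 0.71 (Spearman rho 0.60) over the 22 cytosolic members and 0.37 (rho 0.40) over the 14 mitochondrial ones, with the same sign for 20 and 10 of them. Genes are not independent replicates, and these values are a description.

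**Figure D5:**
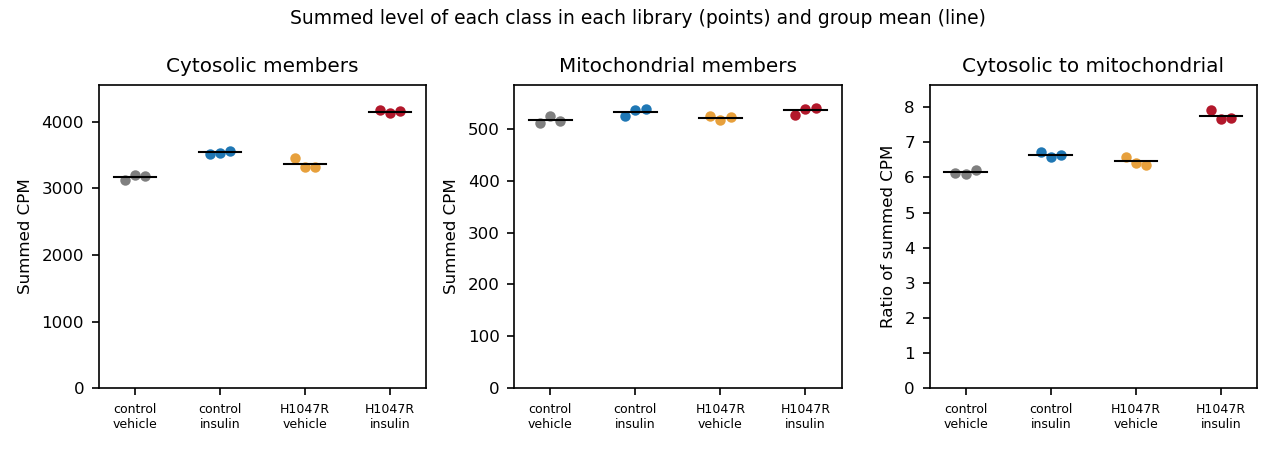
Summed CPM of 22 cytosolic members (left) and 16 mitochondrial members (middle) and their ratio (right) in each of 12 libraries, with lines for group means and axes from 0. SARS2 and VARS2 enter the mitochondrial sum at 0 counts. The cytosolic sum is highest in H1047R insulin at a mean of 4150 CPM, while the mitochondrial sum stays between 510.0 and 540.3 CPM, and the ratio goes from 6.14 in control vehicle to 7.76 in H1047R insulin.

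Promoter sequence was examined because many cytosolic members moved together. RefSeq windows of 250 bases before to 50 bases after the start (GRCh38.p14) were on hand for 33 members, of which 19 were cytosolic, and not for LARS1, VARS1, YARS1, AARS2 and VARS2. The letters TGATGNAA on either strand, the core of the element that ATF4 binds with a C/EBP partner, occurred in the windows of 7 of 19 cytosolic members and of 1 of 14 mitochondrial ones, YARS2. Of windows, 25.9% of the cytosolic, 5.56% of the mitochondrial and 3.62% of all 35116 held it. The cytosolic matches are shown, then the YARS2 match, 5′ to 3′ on the strand of the gene, with the matching letters in capitals and 10 bases on each side.
AARS1 (chr16:70289676-70289703, minus strand): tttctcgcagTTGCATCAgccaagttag
CARS1 (chr11:3057408-3057435, minus strand): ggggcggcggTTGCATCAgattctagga
GARS1 (chr7:30594835-30594862, plus strand): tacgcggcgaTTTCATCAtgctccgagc
IARS1 (chr9:92293693-92293720, minus strand): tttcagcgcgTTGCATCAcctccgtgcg
MARS1 (chr12:57488054-57488081, plus strand): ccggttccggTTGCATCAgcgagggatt
NARS1 (chr18:57621805-57621832, minus strand): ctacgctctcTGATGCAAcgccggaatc
TARS1 (chr5:33440957-33440984, plus strand): cgcctttcgaTTGCATCAgctggtccag
YARS2 (chr12:32756077-32756104, minus strand): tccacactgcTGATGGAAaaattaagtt
Most cytosolic matches lay close to the RefSeq start that defines the window. In GENCODE v44 the gene starts differ. There AARS1 reaches to 70289707, with its match inside the gene, and GARS1 and MARS1 begin at 30580533 and 57475445, upstream of their matches. The centre lay between positions -29 and 18 from the RefSeq start for all but AARS1, at -183. The match ran on the opposite strand of the gene for all but NARS1. With insulin in H1047R cells, 6 of these 7 cytosolic members were called higher, with a median log2 fold change of 0.56, and NARS1, the asparaginyl enzyme, had 0.15 ± 0.0388 (edgeR adjusted p = 0.00264). NARS1 passed by DESeq2 (adjusted p = 4.94e-05), with library totals alone (adjusted p = 0.000245) and without the filter on low counts (adjusted p = 0.00041), so that the count of 6 depends on the tool. Of the 12 cytosolic members with a window but no match, 3 were higher (FARSA, SARS1 and WARS1) and 1 lower, with a median of 0.12. Of all genes, 9.85% were called higher and 9.8% lower in this comparison. In control cells 3 of 7 and 3 of 12 were called higher, beside 0.483% of all genes, with medians of 0.20 and 0.15. YARS2, the mitochondrial tyrosyl enzyme, had 0.19 ± 0.0535 (adjusted p = 0.00542) in H1047R cells.

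The strongest responder, WARS1, held no TGATGNAA in its windows but held the letters of 2 interferon elements, namely GAAA repeated after a gap of any 2 bases (the ISRE core) and TTCNNNGAA (the GAS core). These matches, which do not overlap each other, are shown in the same way because WARS1 is known as an interferon-induced synthetase.
WARS1 ISRE (chr14:100375383-100375412, minus strand): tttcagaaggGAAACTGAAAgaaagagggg
WARS1 GAS (chr14:100375471-100375499, minus strand): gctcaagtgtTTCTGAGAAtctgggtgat
The ISRE core occurred in 3.57% of all windows and in those of 2 members, WARS1 and EARS2. TTCNNNGAA occurred in 7.66% of all windows and in those of 5 members, CARS1, TARS1, WARS1, PARS2 and WARS2. Of the members with either core, CARS1, TARS1 and WARS1 were called higher with insulin in H1047R cells. EARS2, PARS2 and WARS2 were not called. EARS2 had a mean of 36.5 CPM in both H1047R groups, and WARS2 was at -0.19. TGACGTCA, the cyclic AMP element, was in the window of AIMP2 (1.85% of all windows), and CACGTG, the E-box that MYC and TFEB bind, was in windows of AIMP2, IARS1, CARS2, EARS2 and MARS2 (7.26% of all windows). A match is a description of these letters and not a measured binding site.

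Other genes of the same pathway were counted with insulin in H1047R cells, the comparison with the most member calls, in which 9.85% of all genes were called higher and 9.8% lower. From the list of 29 genes that respond to ATF4 or to amino acid supply, 21 passed as higher and 1 as lower. The rises were led by ATF3 (2.09 ± 0.108), CHAC1 (1.95 ± 0.0957) and ASNS (1.33 ± 0.207), a stress factor, a glutathione-degrading enzyme and asparagine synthetase. ASNS was low, at a mean of 1.05 CPM in H1047R vehicle and 2.64 in H1047R insulin. The gene that fell was NUPR1 (-0.79), at means of 21.8 and 12.7 CPM in the same groups. ATF4 itself rose by 0.24 ± 0.0445 (edgeR adjusted p = 3.3e-05). In control cells 10 of these 29 passed as higher and 0 as lower, beside 0.483% and 1.15% of all genes. Of 15 amino acid transporters 6 rose and 2 fell, with SLC3A2 (1.32) and SLC7A11 (1.02) higher and the cationic transporter SLC7A2 (-0.80) lower. SLC3A2 and SLC7A11 together form the cystine importer.

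The lists of genes that make and mature transfer RNAs gave these counts in the same comparison, to be read against 9.85% of all genes called higher and 9.8% lower. Of 24 genes of RNA polymerase III and its factors 6 rose and 0 fell, with POLR3G (0.97), POLR3C (0.54) and BRF2 (0.38) in front, and the median was 0.040. Of 21 tested genes of tRNA processing and export 4 rose and 0 fell, among them the RNase P subunits RPP38 (0.52) and RPP40 (0.38) and the export factor XPOT (0.36). Of 34 genes of cytosolic tRNA modification 9 rose and 1 fell, with DUS3L, PUS1 and PUS7 at 0.50, 0.50 and 0.49. Of 13 genes of mitochondrial tRNA processing and modification 3 rose, TRIT1, YRDC and CDK5RAP1 (0.49, 0.36 and 0.32), and 2 fell.

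Of 8 tested genes on the list of cytosolic elongation factors 5 fell and 0 rose, beside 9.8% and 9.85% of all genes, with a median of -0.27, led by EEF1A1 (-0.51 ± 0.0347), which carries aminoacyl-tRNA to the ribosome, EEF2 (-0.45 ± 0.0341) and EEF1D (-0.37 ± 0.0472). The other 2 that fell were EEF1B2 (-0.30) and EEF1A2 (-0.24). EEF2K, EIF5A and EIF5A2, also on the list, were at -0.09, 0.11 and 0.05 and did not pass (edgeR adjusted p = 0.423, 0.0251 and 0.567). EEF1A1 has near-identical copies in the genome, so reads may be lost or split among them. Of 10 mitochondrial translation factors 1 rose, MTRF1L (0.40 ± 0.0738), a share near the 9.85% of all genes. By edgeR 0 of 11 genes of the amidotransferase, formyltransferase and selenocysteine routes passed. At an unadjusted p below 0.05 there were 3 higher and 2 lower, and the share of all genes at that p was not counted.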

How the data were processed

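Paired reads were trimmed (cutadapt, Trim Galore) and mapped with STAR on hg38 by the authors, as the submitters' processing notes and the methods state. What the authors deposited are raw counts per gene of read pairs placed at 1 site, not normalized. The methods name a mouse GENCODE release as the annotation, whereas the files hold human gene identifiers, and the human release and tool versions were not given in the sources used here. Counts of the reverse strand were used. Unmapped, multimapping, unassigned and ambiguous reads (3.12 to 4.09%, 8.48 to 15.4%, 3.91 to 4.55% and 3.31 to 3.61%) stayed out of library sizes and tests.

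Of 60617 identifiers, 60357 matched a gene name table. The filter kept genes with a mean of 1 count or more per library. The test was edgeR 4.0.16 in R 4.3.3 (TMM scaling, glmQLFit and glmQLFTest), in 1 fit of 12 libraries with 8 residual degrees of freedom and 5 contrasts. Calls were made at a Benjamini-Hochberg FDR below 0.001, the threshold of the study, adjusted over all 22756 genes, and the SE was derived from the log2 fold change and the F statistic. CPM used TMM-scaled library sizes. Adjusted p-values are from edgeR unless DESeq2 1.42.0 is named. Shares of all genes called are from the main edgeR fit. They are no background for member counts by DESeq2 or another alternative fit. The tests were tested on simulated data. Pairs of replicates differed by more than counting noise (chi-square per degree of freedom 2.70 to 5.90). Positions and canonical lengths are from GENCODE v44, and promoter windows from RefSeq.

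The members and gene lists were chosen with earlier results of these data known. Values in every library were given for up to 6 called cytosolic and 4 called mitochondrial members with the largest change in a comparison, for those moving against their class, and in every case for WARS1, GARS1, KARS1, HARS1, HARS2 and the scaffold subunits. Named genes of the other lists were given log2 fold changes but no values in every library. LARS1, WARS2 and the pair ratios were added after their values were seen. Alternatives were DESeq2, other scalings and filters, counts without regard to strand, only the compared groups in the fit, a replicate block, FDR below 0.05, and leaving out each library.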

Additional observations from a re-analysis of the deposited data

Results flagged for a closer look

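The insulin response differed between H1047R and control cells, by the interaction test of edgeR at an FDR below 0.001, for 8 of 22 cytosolic members, 7 higher and 1 lower, beside 4.58% and 4.49% of all genes. On the log2 scale the response was greater in H1047R cells by 0.59 for CARS1, 0.59 for WARS1, 0.41 for YARS1, 0.40 for TARS1, 0.34 for VARS1, 0.32 for MARS1 and 0.31 for GARS1, and it differed by -0.27 for QARS1. The calls of VARS1 and QARS1 were lost when single libraries were left out. Sequencing depth, the share of multimapping reads and the PIK3CA level moved with the H1047R insulin group, and their part was not tested.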

How the results depend on the processing

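Of 47 calls of members over the 5 comparisons, 35 were kept in every alternative and 12 were lost in at least 1, 10 differences not called gained a call in at least 1, and 0 values reversed, all at an FDR below 0.001. The calls at an FDR below 0.05 were counted with higher and lower together, out of 22 cytosolic and 14 mitochondrial members tested. They numbered 13 cytosolic for insulin in control cells and 5 cytosolic for H1047R in vehicle. Mitochondrial calls numbered 8 for insulin in H1047R cells, 7 for H1047R in insulin and 4 for the interaction. In the same order, 2.31%, 0.624%, 17.3%, 18.5% and 10.4% of all genes were called higher at an FDR below 0.05. Called lower were 2.99%, 0.589%, 17%, 20% and 10.9%. For H1047R in vehicle, cytosolic calls numbered 1 by DESeq2 and 2 without the filter, and calls over all genes 22 by DESeq2, 152 without the filter and 6 with 1 CPM in 3 libraries, beside 36. The median cytosolic difference of insulin in H1047R cells was 0.23 with library totals alone. That of H1047R in insulin was 0.12 by DESeq2, 0.13 with library totals, 0.12 with DESeq2 size factors, 0.12 without the filter, 0.078 without regard to strand and 0.13 with only the compared groups, beside 0.098. The median over all genes moved too, from -0.022 to -0.0010, 0.014, -0.0015, 0, -0.018 and 0.014 in the same order. The cause of the changes in calls was not tested.

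Leaving out 1 library gave 3 to 9 cytosolic calls and 233 to 521 calls over all genes for insulin in control cells. For insulin in H1047R cells it gave 3 to 5 mitochondrial calls, 3471 to 4647 over all genes and a cytosolic median of 0.18 to 0.23. For H1047R in vehicle it gave 0 to 1 cytosolic calls and 14 to 100 calls over all genes. For H1047R in insulin it gave 2 to 5 mitochondrial calls, 4423 to 5793 over all genes and a cytosolic median of 0.088 to 0.13. For the interaction it gave 0 to 1 mitochondrial calls, 1562 to 2564 over all genes and a cytosolic median of 0.047 to 0.11. The lowest count for insulin in control cells came without control insulin replicate 2.

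Over all groups, same-numbered libraries did not deviate together (correlations from -0.22 to 0.21 over 18 pairs, 2 of them over 0.1). Between H1047R vehicle and H1047R insulin the same-numbered pairs were at 0.21, 0.14 and 0.054. Unlike-numbered pairs of these groups ranged from -0.19 to 0.12. Deviations from means of 3 libraries cannot settle whether the numbers mark shared experiments. With the replicate block, 7 cytosolic members were called for insulin in control cells, 12 for insulin in H1047R cells, 11 for H1047R in insulin and 8 for the interaction, and AARS2 lost its call for H1047R in insulin. With 3 libraries a group, differences as small as those of most uncalled members may have gone undetected, and SARS2 and VARS2 had 0 counts.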
